A study of Rattus norvegicus with 48 samples.

Results

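The uncast soleus of low responders to endurance training (LRT) was compared with that of high responders (HRT), 2 rat lines bred apart for how much running distance they gain from treadmill training. The members are the 12 uncast soleus libraries, 6 LRT and 6 HRT, taken by their column names from 48 libraries of plantaris and soleus. All rats were females aged 14 months from generation 19 of the selection. In the series 12 rats of each line were used, 6 of them with 1 hindlimb in a cast for 3 d (HI) and 6 left without a cast (CTRL), and only CTRL rats enter the main comparison. According to the study's methods, rats of both lines and of both treatments had gone through the same treadmill program earlier and ate chow freely. The lines were kept by rotational breeding and are not inbred, so rats of 1 line differ genetically from each other, and a difference between the lines cannot be told apart from one fixed by chance during breeding. Each library came from a different rat.

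Soleus is a postural calf muscle made largely of slow fibres, which rely on oxidative metabolism and use slow isoforms of the contractile and calcium-handling proteins. Fast fibres carry other isoforms, among them the fast calcium pump and the fast regulatory light chain, and draw more on glycolysis. Around the fibres lie a connective tissue sheath of collagens and elastin, vessels, nerve endings and resident cells, and bulk RNA mixes all of them. A lower level of a gene in such samples can come from fewer cells of a type or from less RNA per cell, and these cannot be told apart here.

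The 12 libraries held 26.9 M to 34.2 M estimated counts each, and the RNA integrity number was 7.9 to 8.4 in LRT and 8 to 8.4 in HRT. Against uncast plantaris, a fast calf muscle of the same rats, all 5 measured genes of the fast fibre list were lower in soleus, with a median log2 difference of -3.86, and 5 of 6 genes of the slow fibre list were higher, with a median of 2.27, so the tissue label held by its markers. Of all tested genes 49.1% differed between the muscles, 25.3% higher and 23.9% lower in soleus. HRT replicate 1 stood apart from the rest. It scored 84.5 on the first principal component of the 12 libraries, where the others lay between -18.2 and 9.31, and it held the highest level of the 12 libraries for 26.8% of all tested genes and the lowest for 26.5%. On the second component the 6 LRT libraries scored 10.3 to 27.0 and the other HRT libraries scored -29.0 to -17.6, while HRT replicate 1 lay at 14.0. The 100 most abundant genes took 52.1% ± 0.6 (SD, n = 6) of the counts in LRT and 50.5% ± 1.2 in HRT (two-sided exact permutation test, p = 0.013). The scaling factors (trimmed mean of M-values, TMM) that set the levels below also differed by line, at 0.96 ± 0.02 in LRT and 1.04 ± 0.05 in HRT (n = 6 each, same exact test, p = 0.0043).

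**Figure D1:**
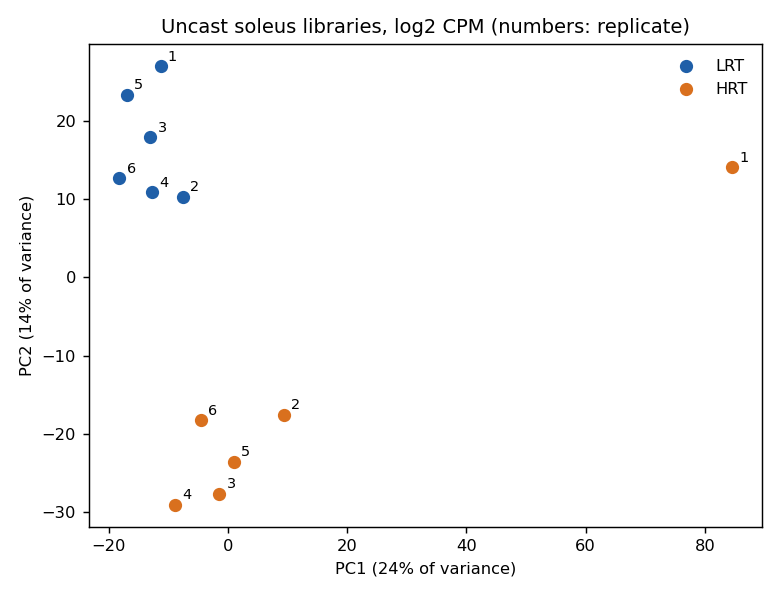
Scores of the 12 uncast soleus libraries on the first 2 principal components of log2 CPM, with LRT in blue, HRT in orange and the replicate number beside each point. HRT replicate 1 lies at 84.5 on the horizontal axis, far to the right of the other 11 libraries, and the lines separate on the vertical axis apart from that library.

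Between the lines 246 of 16960 tested genes differed in uncast soleus (1.45%, edgeR quasi-likelihood test with Benjamini-Hochberg adjusted p under 0.05), 93 of them higher in LRT (0.548%) and 153 lower (0.902%). Of these, 91 genes changed by more than 1 on the log2 scale and are called differentially expressed genes (DEGs), 26 higher (0.153%) and 65 lower (0.383%) in LRT, or 0.537% of tested genes in all. At an unadjusted p under 0.05 there were 2551 genes (15.0%). The 6 LRT and 6 HRT levels did not overlap for 339 genes (2.0% of those tested), 187 higher and 152 lower in LRT, and 110 of the 246 called genes were among them. With HRT replicate 1 left out the count was 150 (0.878% of the genes tested), of which 127 were among the 246, and with the 12 libraries fitted alone it was 78. The balance of directions rests on the scaling. With library totals and no scaling factor 558 genes were called, 9.68% of them higher in LRT, where 37.8% of the 246 were.

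Gene symbols were at hand for 1148 tested genes, taken from the names in the study's gene tables, which list genes that changed with immobilization in this series, so the named genes are a selected set. Of them 28 were called (2.44%), 9 higher and 19 lower in LRT, and all 28 are named below. Without HRT replicate 1, 13 of the 28 were still called. The other 218 called genes carry an identifier only.

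Myoz1 and Mylpf, 2 of the 5 measured genes of the fast fibre list, were higher in LRT than in HRT soleus, where 1.45% of all tested genes and 2.44% of those with a symbol were called in either direction. All 5 differences were positive, with a median log2 difference of 0.85, where the median of all tested genes was 0.00 and 49.2% were positive. The other 3 genes of the list that were measured did not pass. A further 8 genes of the list, the fast myosin heavy chains among them, had no identifier paired with a symbol. Myoz1 (ENSRNOG00000040122), a Z-disc protein of fast fibres that binds calcineurin and alpha-actinin, ranged from 134 to 344 counts per 1e6 scaled counts (CPM) with a median of 221 in LRT and from 60.4 to 134 with a median of 81.8 in HRT. The lowest LRT rat and the highest HRT rat met at the same level, and all other LRT rats lay above all HRT rats. The log2 difference was 1.44 ± 0.26 (SE; edgeR, adjusted p = 0.0017). Mylpf (ENSRNOG00000017645), the regulatory light chain of fast myosin, ranged from 207 to 1213 CPM with a median of 1025 in LRT and from 86.0 to 698 with a median of 296 in HRT. In 5 of the 6 LRT rats Mylpf lay above every HRT rat, and LRT replicate 6 lay at 207 CPM, below 3 HRT rats. Its log2 difference was 1.45 ± 0.39 (edgeR, adjusted p = 0.047), and the call was lost in 9 of the 12 fits that left out 1 library, where the adjusted p reached 0.11. Myoz1 was called in all 12.

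The fast calcium pump Atp2a1 had a median of 236 CPM in LRT and 103 in HRT, with a log2 difference of 0.85 ± 0.30 that did not pass (adjusted p = 0.14), and 1 HRT rat, replicate 1, reached 249 CPM. Casq1, the calsequestrin of fast fibres, lay between 585 and 694 CPM in LRT and between 544 and 588 in HRT, with a log2 difference of 0.19 ± 0.21 (adjusted p = 0.73). Pvalb, the calcium buffer parvalbumin, was near the limit of detection in this muscle, at most 3.83 CPM in LRT and 2.64 in HRT. Its log2 difference was 0.70 ± 0.61 (edgeR, adjusted p = 0.63), and ran from 0.10 to 1.23 over the 12 fits that left out 1 library. In uncast plantaris the mean Pvalb level was 2393 CPM in LRT and 1332 in HRT.

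Of other genes with high levels in plantaris, Aqp4 and Rabep2 were higher in LRT soleus. Aqp4, the water channel of the fast fibre membrane, had a median of 17.3 CPM in LRT (6.04 to 36.9) and 3.74 in HRT (1.77 to 10.8), a log2 difference of 1.96 ± 0.53 (edgeR, adjusted p = 0.045), and this call was lost in 8 of 12 fits with 1 library left out. Rabep2, a Rab effector of endocytosis, had a median of 77.4 CPM in LRT (38.4 to 97) and 31.2 in HRT (19.3 to 60.5), a log2 difference of 1.09 ± 0.26 (adjusted p = 0.018), and was not called in 3 of those 12 fits. In RefSeq's annotation of GRCr8 Rabep2 and Atp2a1 are neighbours on opposite strands whose ends overlap. The study's methods name a stranded library kit, but whether the quantification used the strand is not settled. Reads shared between these genes may therefore not have been told apart. The lines overlapped for Aqp4 and Rabep2.

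The promoters of the fast fibre genes are shown because these genes leaned the same way in LRT. RefSeq windows in GRCr8 were found for 4 of the 5 measured genes of the list, and for 15 of the 28 called genes. The 250 bases before the start are printed 5′ to 3′ on the gene's strand, with E-boxes, written CANNTG and read on both strands, and matches to the MEF2 consensus in capitals. The windows are chr15:3693363-3693612 on the plus strand for Myoz1 and, on the minus strand, chr1:190475411-190475660 for Atp2a1, chr13:87212711-87212960 for Casq1 and chr7:111666290-111666539 for Pvalb.
Myoz1: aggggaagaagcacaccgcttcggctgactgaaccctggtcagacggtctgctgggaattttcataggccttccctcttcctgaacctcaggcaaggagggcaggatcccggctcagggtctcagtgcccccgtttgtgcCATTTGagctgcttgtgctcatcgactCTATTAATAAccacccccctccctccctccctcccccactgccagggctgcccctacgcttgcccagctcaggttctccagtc
Atp2a1: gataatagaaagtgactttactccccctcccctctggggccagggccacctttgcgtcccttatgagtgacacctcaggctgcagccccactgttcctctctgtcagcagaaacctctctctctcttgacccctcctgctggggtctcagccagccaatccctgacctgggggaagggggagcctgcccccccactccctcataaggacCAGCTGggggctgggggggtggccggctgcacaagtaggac
Casq1: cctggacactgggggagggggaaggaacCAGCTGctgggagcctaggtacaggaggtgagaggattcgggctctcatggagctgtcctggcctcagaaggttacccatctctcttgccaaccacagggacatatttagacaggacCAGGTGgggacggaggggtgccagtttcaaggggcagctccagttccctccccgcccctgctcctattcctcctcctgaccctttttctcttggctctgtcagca
Pvalb: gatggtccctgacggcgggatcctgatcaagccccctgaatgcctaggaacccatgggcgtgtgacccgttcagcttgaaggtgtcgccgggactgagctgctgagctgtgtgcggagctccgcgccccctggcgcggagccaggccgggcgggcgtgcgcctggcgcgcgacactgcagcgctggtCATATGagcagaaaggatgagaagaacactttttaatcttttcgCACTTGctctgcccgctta
Myoz1 held 1 E-box and 1 MEF2 match, which did not overlap. Atp2a1 held 1 E-box, Casq1 held 2 and Pvalb held 2, with no MEF2 match in these windows. Of 33469 RefSeq windows of the same length, 65.5% held an E-box and 2.96% a MEF2 match. Letters that match describe a sequence and show no binding.

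**Figure D2:**
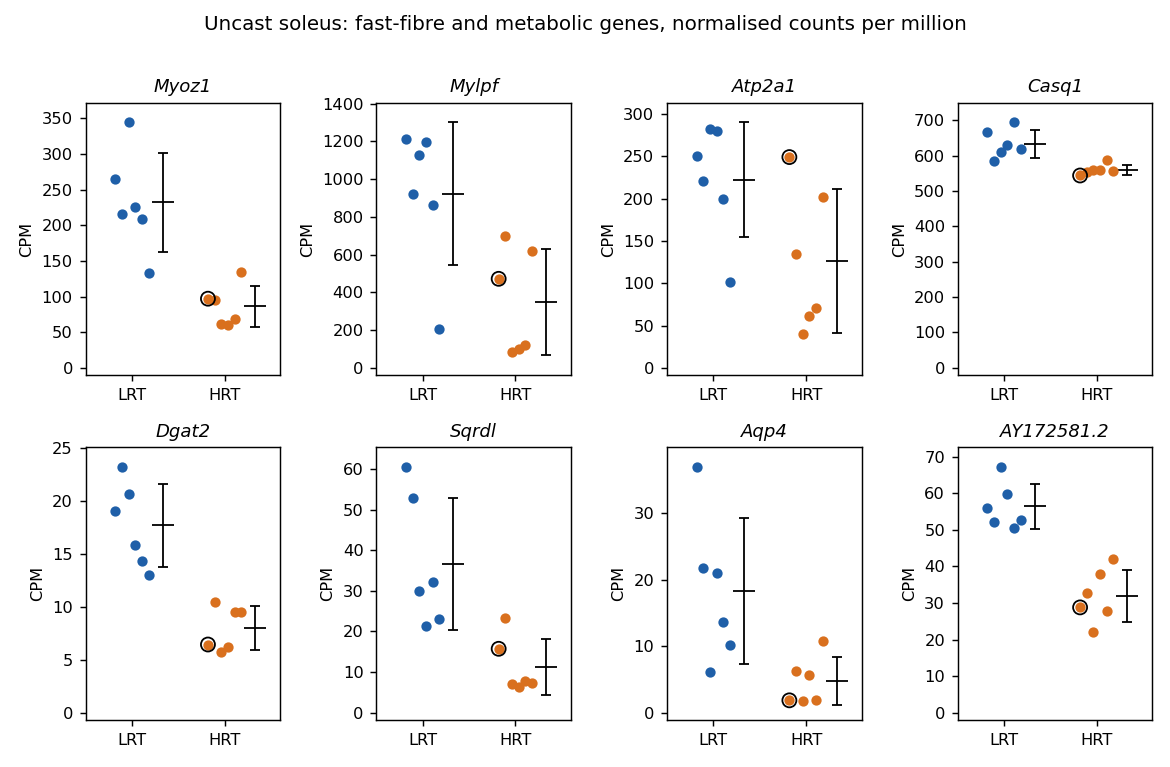
CPM in each uncast soleus library for 4 fast fibre genes (top row) and for Dgat2, Sqrdl, Aqp4 and AY172581.2 (bottom row), with LRT in blue, HRT in orange, HRT replicate 1 ringed, and mean and SD drawn beside the points. Dgat2 and AY172581.2 show no overlap between the lines, Mylpf has 1 LRT rat at 207 CPM among the HRT rats, and Casq1 differs little.

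Of the 6 measured genes of the slow fibre list none was called by edgeR, where 1.45% of all tested genes were. In that list 5 differences were positive, with a median log2 difference of 0.18, and none had an unadjusted p under 0.05 or was called by DESeq2 or limma-voom. Casq2, the calsequestrin of slow and cardiac muscle, had a median of 461 CPM in LRT and 479 in HRT (log2 difference 0.01 ± 0.35, edgeR adjusted p = 0.99). Car3, the carbonic anhydrase of slow fibres, had a median of 19431 CPM in LRT and 17862 in HRT (0.16 ± 0.28, adjusted p = 0.84). Fabp3, which carries fatty acids in oxidative fibres, and Pln, the phospholamban that restrains the slow calcium pump, differed by 0.20 ± 0.37 and 0.31 ± 0.22 (adjusted p = 0.85 and 0.54). The small heat shock protein Hspb6 stood at 1198 CPM in HRT replicate 1 and at 273 to 393 in the other HRT rats, and its log2 difference was -0.35 ± 0.30 (adjusted p = 0.61), or 0.07 without that library.

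None of the 28 measured genes of the proteolysis, autophagy and atrophy list was called (edgeR) and none had an unadjusted p under 0.05, beside 1.45% and 15.0% of all tested genes, with 17 positive differences and a median of 0.05. No member was called under DESeq2 or limma-voom either. Trim63, the ubiquitin ligase MuRF1, had a median of 157 CPM in LRT and 143 in HRT (log2 difference 0.07 ± 0.35, adjusted p = 0.95). Fbxo32, the ubiquitin ligase atrogin-1, had a median of 239 CPM in LRT and 247 in HRT (-0.25 ± 0.32, adjusted p = 0.76), and LRT replicate 3 lay apart at 64.0 CPM. Hdac4, a histone deacetylase that responds to loss of nerve input, differed by -0.06 ± 0.42 (adjusted p = 0.97), or by 0.15 without HRT replicate 1. The cell cycle inhibitor Cdkn1a and the autophagy kinase Ulk1 had the smallest p of the list, with differences of -0.57 ± 0.42 and -0.48 ± 0.27. Both were highest in HRT replicate 1, and without that library the differences were -0.34 and -0.11 (edgeR, adjusted p = 0.86 and 0.93). A miss of the threshold does not show equal levels. The standard errors of 0.27 to 0.42 rest on a spread shared by all 8 groups, the immobilized ones included, and leave room for sizeable differences.

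None of the 22 measured genes of the glycolysis and glycogen list, which also holds genes of glycogen synthesis and of gluconeogenesis, passed by edgeR. Of them 19 differences were positive, 11 had an unadjusted p under 0.05 (15.0% of all tested genes did), and the median log2 difference was 0.54. By edgeR 1.45% of all tested genes were called. Under DESeq2 3 members were called, beside 2.56% of all tested genes, and under limma-voom 1, beside 1.57%. The levels summed over the list ran from 5963 to 7829 CPM in LRT and from 4055 to 5922 in HRT, so each LRT rat lay above each HRT rat. That separation rests on the scaling, since with library totals the lines overlapped (5730 to 7470 against 4294 to 5969 CPM) and 5 of 6 LRT rats lay above every HRT rat. Slc16a3, the lactate exporter of glycolytic fibres, had a median of 30.6 CPM in LRT (7.30 to 47.1) and 5.03 in HRT (1.70 to 21.8), a log2 difference of 1.92 ± 0.56 (adjusted p = 0.063). The muscle enolase Eno3 had a median of 1728 CPM in LRT (1336 to 1950) and 987 in HRT (791 to 1342), a difference of 0.74 ± 0.22 (adjusted p = 0.068). Ldha, the lactate dehydrogenase subunit of fast muscle, named after its value was seen, had medians of 521 and 218 CPM and a difference of 1.02 ± 0.31 (adjusted p = 0.081). Against soleus, 17 of the 22 genes were called higher in uncast plantaris, beside 23.9% of all tested genes.

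Of 33 measured genes of respiration and substrate oxidation 31 differences were positive, the median was 0.30, 9 had an unadjusted p under 0.05 and 1 was called, beside 15.0% and 1.45% of all tested genes. The summed level was 8868 to 11275 CPM in LRT and 5252 to 8631 in HRT, with the lowest value in HRT replicate 1, which held the lowest of the 12 levels for 19 of the 33 genes. Without that library 31 differences were still positive, with a median of 0.24. These sums did not overlap with TMM scaling but did with library totals, where they were 8549 to 10608 and 5866 to 8699 CPM. The called gene was Sqrdl, the mitochondrial enzyme that oxidizes hydrogen sulphide, with a median of 30.9 CPM in LRT (21.4 to 60.4) and 7.54 in HRT (6.38 to 23.3). Its log2 difference was 1.62 ± 0.43 (edgeR, adjusted p = 0.042), and it was not called in 7 of 12 fits with 1 library left out.

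Among lipid genes Dgat2, which catalyses the last step of triglyceride synthesis, was higher in LRT. It had a median of 17.4 CPM in LRT (13 to 23.2) and 7.95 in HRT (5.67 to 10.5), so the lines did not overlap. The log2 difference was 1.15 ± 0.25 (edgeR, adjusted p = 0.0073), and it was called in all 12 fits with 1 library left out. It was the only called gene of the 21 measured in the list of lipid synthesis, storage and sterols, where 16 differences were positive and the median was 0.17, beside 1.45% of all tested genes called and a median of 0.00. Dgat2 is also on the adipocyte list. None of the other 4 genes of that list was called, and without Dgat2, a reading added after seeing the data, they summed to 23.8 to 41.6 CPM in LRT and 27.0 to 38.2 in HRT, so the lines overlapped.

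The remaining named genes higher in LRT were AABR07067023.1, AY172581.2 and Tex9. AABR07067023.1 (ENSRNOG00000058742) had a median of 9.61 CPM in LRT (5.38 to 15.0) and 2.66 in HRT (2.13 to 3.31), a log2 difference of 1.80 ± 0.31 (edgeR, adjusted p = 0.00073). AY172581.2 (ENSRNOG00000029145) had a median of 54.4 CPM in LRT (50.4 to 67.2) and 30.8 in HRT (22.2 to 42.1), a difference of 0.82 ± 0.18 (adjusted p = 0.011). Neither overlapped between the lines, and both were called in all 12 fits with 1 library left out. Tex9 had a median of 8.26 CPM in LRT and 4.37 in HRT, with 1 HRT rat at 7.66, and a difference of 0.83 ± 0.19 (adjusted p = 0.014), or an adjusted p of 0.051 without HRT replicate 1.

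Col11a1 and Eln, 2 of the 23 measured genes of the extracellular matrix list, were lower in LRT soleus, where 1.45% of all tested genes were called. All 23 differences were negative, 13 had an unadjusted p under 0.05 (15.0% of all tested genes did), and the median log2 difference was -0.59. Col11a1 (ENSRNOG00000023148), a fibrillar collagen chain, had a median of 4.97 CPM in LRT (1.64 to 7.12) and 12.5 in HRT (10.2 to 24.9), with no overlap between the lines. Its log2 difference was -1.49 ± 0.37 (edgeR, adjusted p = 0.025), and without HRT replicate 1 it was -1.51 (adjusted p = 0.041). The call was lost in 4 of the 12 fits that left out 1 library, where the adjusted p reached 0.075. Eln (ENSRNOG00000001469), the elastin of stretchable fibres, had a median of 11.4 CPM in LRT (8.83 to 16.9) and 17.3 in HRT (12.8 to 63.1), with a difference of -0.96 ± 0.26 (adjusted p = 0.047). The level of 63.1 CPM was that of HRT replicate 1, and without it the difference was -0.53 (adjusted p = 0.32), 1 of 7 such fits in which Eln was not called. Col1a1, the main chain of type I collagen, named after its value was seen, had a median of 71.0 CPM in LRT (31.1 to 91.7) and 131 in HRT (63.8 to 664), a difference of -1.72 ± 0.51 that did not pass (adjusted p = 0.070).

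The summed level of the list was 839 to 1646 CPM in LRT and 913 to 3897 in HRT, with the highest value in HRT replicate 1 and the next at 3393. The lines therefore overlapped in the sum, and 10 of the 23 genes had their highest level in HRT replicate 1. Without that library all 23 differences were still negative, the median was -0.45 and 1 gene was called, beside 0.878% of all genes tested without it. All 9 genes of the fibroblast and tendon list, 6 of which are also on the matrix list, had negative differences, with a median of -0.45. With all 12 libraries none of these 9 was called, beside 1.45% of all tested genes. The sum of the 9 genes was 614 to 1257 CPM in LRT and 635 to 3123 in HRT. The part of tendon or sheath carried along with the muscle was not tested.

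Adamts14, Creb3l1, Dchs1, Pamr1 and Igsf10 were also lower in LRT. Adamts14, a protease that trims procollagen, had a median of 2.08 CPM in LRT (1.65 to 2.77) and 3.44 in HRT (2.42 to 8.19), a log2 difference of -0.87 ± 0.23 (edgeR, adjusted p = 0.038). Creb3l1, a transcription factor held in the endoplasmic reticulum that drives collagen genes, differed by -0.91 ± 0.25 (adjusted p = 0.049). Dchs1, a large protocadherin, differed by -0.60 ± 0.17 (adjusted p = 0.048) and reached 54.2 CPM in HRT replicate 1 where the LRT rats lay between 15.5 and 19.2. Pamr1, a protein linked to muscle regeneration, differed by -1.33 ± 0.36 (adjusted p = 0.046), and Igsf10, an immunoglobulin superfamily member, by -1.22 ± 0.33 (adjusted p = 0.045). All 5 had overlapping lines, and all 5 lost the call without HRT replicate 1, with adjusted p between 0.10 and 0.27. Without that library their differences were -0.54 for Adamts14, -0.61 for Creb3l1, -0.33 for Dchs1, -1.24 for Pamr1 and -1.07 for Igsf10. Over all 12 fits with 1 library left out, the call was lost in 6 for Adamts14, 10 for Creb3l1, 8 for Dchs1, 9 for Pamr1 and 8 for Igsf10. The difference in these fits ran from -1.56 to -0.94 for Pamr1 and from -1.44 to -0.77 for Igsf10. The edgeR adjusted p reached 0.16 for Pamr1 and 0.19 for Igsf10.

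Tenm4, Cntn2, Cacna1g, Auts2 and Avil were lower in LRT. Tenm4 (ENSRNOG00000011151), a teneurin that spans the membrane and joins neighbouring cells, lay between 2.37 and 2.92 CPM with a median of 2.63 in LRT and between 3.93 and 14.5 with a median of 5.82 in HRT. The 6 LRT rats were close together and the HRT rats widely spread, with no overlap. The log2 difference was -1.57 ± 0.24 (edgeR, adjusted p = 6.6e-05), and -1.41 without HRT replicate 1. Cntn2 (ENSRNOG00000009033), an adhesion protein of axons, had a median of 3.16 CPM in LRT (1.63 to 4.40) and 8.11 in HRT (6.00 to 15.9), also with no overlap, and a difference of -1.74 ± 0.47 (adjusted p = 0.048) that was not called in 8 of 12 fits with 1 library left out. Cacna1g, a low-voltage-activated calcium channel, had a median of 2.95 CPM in LRT (1.87 to 4.01) and 5.26 in HRT (4.09 to 10.8), a difference of -1.02 ± 0.22 (adjusted p = 0.0073), again with no overlap.

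Auts2, a regulator of transcription known from brain development, differed by -1.59 ± 0.35 (edgeR, adjusted p = 0.0097) and reached 4.14 CPM in HRT replicate 1. Without that library its difference was -1.07 (adjusted p = 0.084). Avil, an actin-binding protein of sensory neurons, differed by -0.99 ± 0.23 (adjusted p = 0.014), or -0.70 without that library (adjusted p = 0.086). The list of neuromuscular junction and nerve markers, which does not hold these genes, gave no called gene among 6, beside 1.45% of all tested genes. It had 4 negative differences and a median of -0.26. The sum of the list was 26.5 to 47.8 CPM in LRT and 31.6 to 67.9 in HRT. The value of 67.9 was that of HRT replicate 1, and without that library the highest HRT sum was 42.2 and the median difference -0.08. The part of nerve tissue in these differences was not tested.

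**Figure D3:**
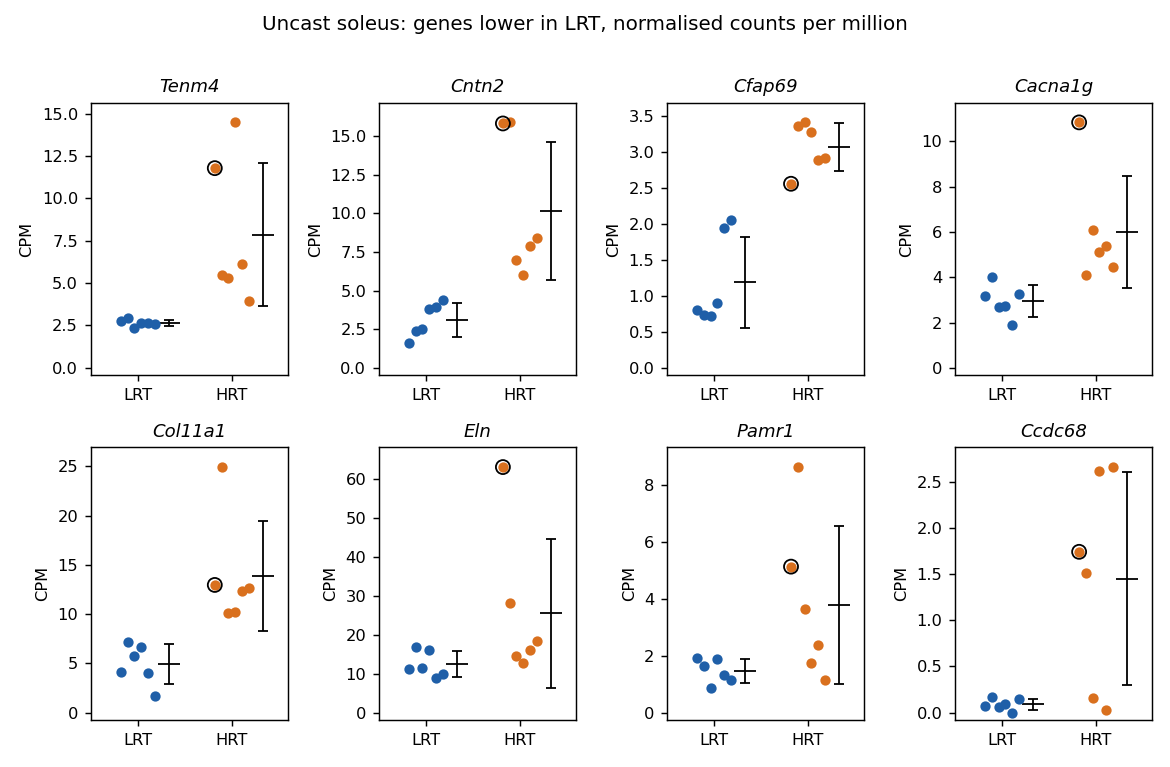
CPM in each uncast soleus library for 8 genes lower in LRT, with LRT in blue, HRT in orange, HRT replicate 1 ringed, and mean and SD beside the points. Tenm4, Cntn2, Cfap69, Cacna1g and Col11a1 show no overlap, whereas the HRT mean of Eln is raised by the ringed library at 63.1 CPM and 2 HRT rats lie at the LRT level for Ccdc68.

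Cfap69 and Mycbpap, genes of cilia and sperm tails, were lower in LRT. Cfap69 (ENSRNOG00000006114), a cilia and flagella protein, had a median of 0.850 CPM in LRT (0.714 to 2.05) and 3.09 in HRT (2.56 to 3.41), with no overlap, a log2 difference of -1.37 ± 0.26 (edgeR, adjusted p = 0.0029) and a call in all 12 fits with 1 library left out. Mycbpap, a partner of the Myc-binding protein, had a median of 1.44 CPM in LRT and 4.16 in HRT (-1.40 ± 0.37, adjusted p = 0.042), and was not called in 7 of the 12 fits. Ccdc68, a coiled-coil protein of the centrosome, was almost undetected in LRT, at 0 to 0.166 CPM. In HRT 4 rats lay between 1.51 and 2.67 CPM and the other 2 at 0.0327 and 0.155, the level of the LRT rats. The fitted log2 difference was -3.95 ± 0.92 (edgeR, adjusted p = 0.016). Ccdc68 was called in all 12 fits with 1 library left out, but in only 5 of the 10 other alternative fits.

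RT1-CE16, a class I major histocompatibility gene, had a median of 0.365 CPM in LRT (0.130 to 0.485) and 1.67 in HRT (0.434 to 3.40), a log2 difference of -2.40 ± 0.54 (edgeR, adjusted p = 0.012). Class I genes of the RT1 complex are near copies of each other, so its counts are uncertain. It was the only called gene of 14 measured in the interferon and antigen presentation list, where 10 differences were negative and the median was -0.18, beside 1.45% of all tested genes called. AABR07009715.1 (-2.21 ± 0.56, adjusted p = 0.032, no overlap), Lhfpl1 (-0.93 ± 0.25, adjusted p = 0.045) and Zmym6nb (-0.85 ± 0.23, adjusted p = 0.047) completed the 19 genes lower in LRT. All 3 were low, with no level above 2.05 CPM in the 12 libraries. With 1 library left out the call was lost in 6 of 12 fits for AABR07009715.1 and in 9 of 12 for both Lhfpl1 and Zmym6nb, with adjusted p up to 0.12.

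In the other lists no gene was called by edgeR, DESeq2 or limma-voom, beside 1.45%, 2.56% and 1.57% of all tested genes. The immediate early response list had 20 measured genes and a median log2 difference of 0.10. In that list 2 genes had an unadjusted p under 0.05, beside 15.0% of all tested genes. Its gene with the smallest p, the stress-responsive transcription factor Atf3, had a median of 81.3 CPM in LRT (30.9 to 170) and 34 in HRT (17.1 to 66.5), a difference of 1.27 ± 0.49 (adjusted p = 0.18), and Ctgf, a matrix-associated growth factor, differed by -0.65 ± 0.31 (adjusted p = 0.32). The circadian clock list had 10 genes, a median of 0.30 and 3 genes with an unadjusted p under 0.05, beside the same 15.0%. Its repressor Bhlhe41 differed by 0.90 ± 0.34 (adjusted p = 0.18).

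Of all tested genes 15.0% had an unadjusted p under 0.05 and 1.45% were called, for comparison with the lists that follow. Heat shock and chaperone genes (10 measured, median 0.14) had 1 unadjusted p under 0.05. They included the endoplasmic reticulum chaperone Hspa5 at 753 CPM in LRT replicate 3 against 155 to 233 in the other LRT rats. Its difference was 0.51 ± 0.25 (edgeR, adjusted p = 0.33) and turned to -0.097 without that rat. Dnajb4, a co-chaperone, differed by 0.42 ± 0.22 (adjusted p = 0.36). The antioxidant and metal binding list (23 measured, median -0.13) had 3 genes with an unadjusted p under 0.05, beside 15.0% of all tested genes. It included Nqo2, a quinone reductase at 0.55 ± 0.23 (edgeR, adjusted p = 0.23), whose lines overlapped with library totals but not with TMM scaling. Mt3, a metallothionein, reached 10.3 CPM in HRT replicate 1 (-1.09 ± 0.41, adjusted p = 0.17) and differed by -0.38 without that library. In the insulin signalling list (8 measured, median 0.13, 2 unadjusted p under 0.05) Pik3ip1, an inhibitor of phosphoinositide 3-kinase, and Igf1r, the receptor of insulin-like growth factor 1, differed by 0.63 ± 0.29 and -0.41 ± 0.16 (adjusted p = 0.29 and 0.18).

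Among the markers of other cells, all 6 erythrocyte genes had positive differences with a median of 0.91, where 49.2% of all tested genes were positive. None was called, beside 1.45% of all tested genes. The summed level of the 6 genes was 222 to 976 CPM in LRT and 163 to 611 in HRT, so 3 LRT rats lay above all HRT rats. Alas2, the enzyme that starts haem synthesis in red cell precursors, differed by 0.89 ± 0.56 (edgeR, adjusted p = 0.47). The part of blood left in the muscle was not tested. Leukocyte (15 measured, median -0.08), endothelial (6, median 0.21), smooth muscle (4, median 0.01) and satellite cell genes (4, median 0.23) gave no called gene, beside the same 1.45%. The summed levels were 32.7 to 44.8 CPM in LRT and 36 to 50.8 in HRT for leukocytes, and 45.0 to 102 against 47.9 to 59.5 for endothelium. For smooth muscle they were 15.5 to 30.9 against 17.8 to 25.2, and for satellite cells 180 to 346 against 168 to 283.

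**Figure D4:**
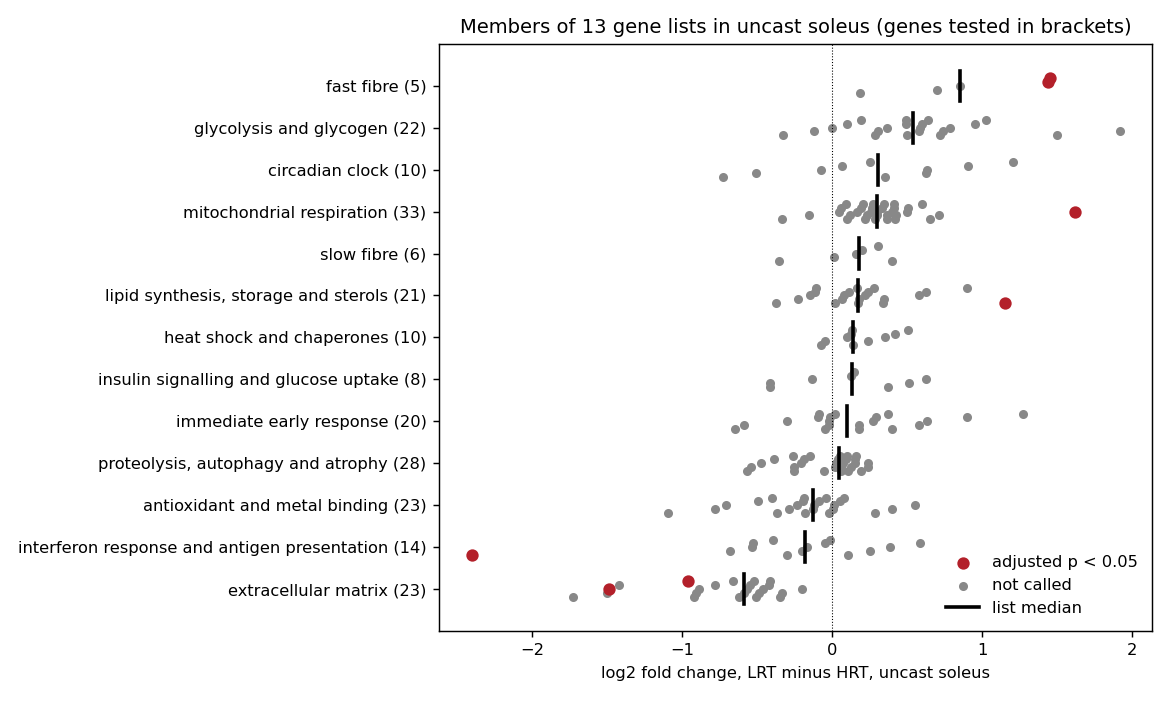
Log2 differences of LRT minus HRT in uncast soleus for every measured member of 13 gene lists, with called genes in red and the list median as a bar. Fast fibre and glycolysis members lie mostly to the right of 0, all 23 extracellular matrix members lie to the left, and few members were called.

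The rule also names 4 called genes without a symbol. ENSRNOG00000042253 had a median of 10.3 CPM in LRT (8.73 to 11.6) and 3.26 in HRT (2.81 to 4.71), a log2 difference of 1.54 ± 0.11 (edgeR, adjusted p = 5.9e-13). It was higher in LRT by 1.36 in immobilized soleus and by 1.90 in uncast plantaris. ENSRNOG00000051648 was also higher, with a median of 4.68 CPM against 1.76 and a difference of 1.44 ± 0.32 (adjusted p = 0.012). In the other direction ENSRNOG00000057212 lay between 0 and 0.298 CPM in LRT and between 1.02 and 3.72 in HRT, a fitted difference of -4.29 ± 0.56 (adjusted p = 6.6e-06). ENSRNOG00000038999 had a median of 5.30 CPM in LRT (4.44 to 8.89) and 69.1 in HRT (12.1 to 112), a difference of -3.55 ± 0.68 (adjusted p = 0.0029). The rule took these 4 only from called genes whose lines did not overlap, so the missing overlap was a condition of choice. All 4 were called in each of the 12 fits with 1 library left out.

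LOC100362027, a gene similar to ribosomal protein L30, split the LRT rats. It was at 0 in 4 LRT rats, at 0.0974 CPM in another and at 34.2 CPM in replicate 5, while the HRT rats lay between 25.0 and 56.2 CPM. The log2 difference was -2.59 ± 0.99 and did not pass (edgeR, adjusted p = 0.18), and without LRT replicate 5 it was called (adjusted p = 4.9e-05). In uncast plantaris of the same rats LRT ranged from 0 to 34.3 CPM and HRT from 29.1 to 60.3. The log2 difference there was -2.86 ± 1.01 and did not pass (edgeR, adjusted p = 0.23). In immobilized soleus the LRT mean was 32.7 CPM ± 1.7 (SD, n = 6) and the HRT mean 34.4 ± 11.9. Reads of near-identical ribosomal protein copies may be split between them, so these values are uncertain.

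The line difference was then read in immobilized soleus, from other rats of the same lines, and in uncast plantaris of the same rats. In immobilized soleus 2076 genes were called (12.2%), 6.6% higher and 5.64% lower in LRT, and 104 of the 246 genes were among them, 42.3% of the 246 and 5.01% of the 2076, 103 of them in the same direction. In uncast plantaris 89 genes were called (0.525%), 0.265% higher and 0.259% lower, and 30 of the 246 were among them, 12.2% of the 246 and 33.7% of the 89, 29 of them in the same direction. Because the plantaris came from the same rats, its agreement in sign is not independent of the soleus. Of the 28 named genes 3 were called in immobilized soleus, Myoz1 (0.86 ± 0.26, edgeR adjusted p = 0.024), AABR07067023.1 (1.19 ± 0.31, adjusted p = 0.0098) and Creb3l1 (-0.91 ± 0.28, adjusted p = 0.026), all in the same direction. In sign, 227 of the 246 called genes and 19 of the 28 named genes were alike in immobilized soleus, where 49.3% of all tested genes had a positive difference. In plantaris Cfap69 (-1.15 ± 0.26, adjusted p = 0.025) and AABR07067023.1 (1.89 ± 0.39, adjusted p = 0.010) were called, and 226 of the 246 genes and 24 of the 28 had the same sign.

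Several genes that differed in uncast soleus had small differences in immobilized soleus. Dgat2 stood at 52.5 CPM ± 25.1 (SD, n = 6) in LRT and 54.5 ± 18.8 in HRT after immobilization, a log2 difference of -0.06 (edgeR, adjusted p = 0.91). Tenm4 stood at 2.36 ± 0.71 and 2.80 ± 0.42 CPM, a difference of -0.24 (adjusted p = 0.56), and Cntn2 at 22.3 ± 16.1 and 25.1 ± 24.6 CPM, a difference of -0.18 (adjusted p = 0.84). Ccdc68 stood at 2.32 ± 1.22 CPM in LRT and 1.70 ± 1.38 in HRT. Whether the line difference changed with immobilization was not tested here for these genes. The extracellular matrix list had a median of -0.39 in immobilized soleus with 3 positive differences, and -0.10 in uncast plantaris with 8 positive. For the fast fibre list the medians were 0.48 (4 of 5 positive) and 0.46 (5 of 5). Glycolysis and glycogen genes had 0.27 (17 of 22) and 0.31 (19 of 22), and respiration genes 0.13 (24 of 33) and -0.05 (13 of 33). In immobilized soleus 2, 2 and 1 genes of these 3 lists were called, beside 12.2% of all tested genes. In plantaris none was, beside 0.525%.

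A test of the line difference in soleus against that in plantaris called 2 genes (0.0118%, edgeR), while 735 had an unadjusted p under 0.05 (4.33%), and DESeq2 called 16. Both muscles came from the same rats and this fit treats the libraries as independent. With the rat as a block, limma-voom on the 24 uncast libraries called 9. That block takes equal replicate numbers in both muscles as the same rat, which the labels do not state. It also differs from the edgeR fit in tool and libraries. The 2 genes lack a symbol and are named because they were so few. ENSRNOG00000057214 had a median of 7.13 CPM in LRT and 18 in HRT soleus, a difference of -1.42 ± 0.19, against 0.34 ± 0.20 in plantaris (difference of differences -1.76 ± 0.28, adjusted p = 0.00096). ENSRNOG00000059075 differed by -1.58 ± 0.31 in soleus and 1.52 ± 0.35 in plantaris (-3.10 ± 0.47, adjusted p = 0.00082). Among genes with a symbol the 3 smallest p were those of Tenm4, RGD1561667 and Psd3. Tenm4 differed by -1.57 in soleus and 0.00 in plantaris (adjusted p = 0.15), RGD1561667 by -0.20 and 2.72 (adjusted p = 0.40), and Psd3, a synaptic exchange factor, by -0.16 and 0.73 (adjusted p = 0.41), so none of the 3 passed by edgeR.

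**Figure D5:**
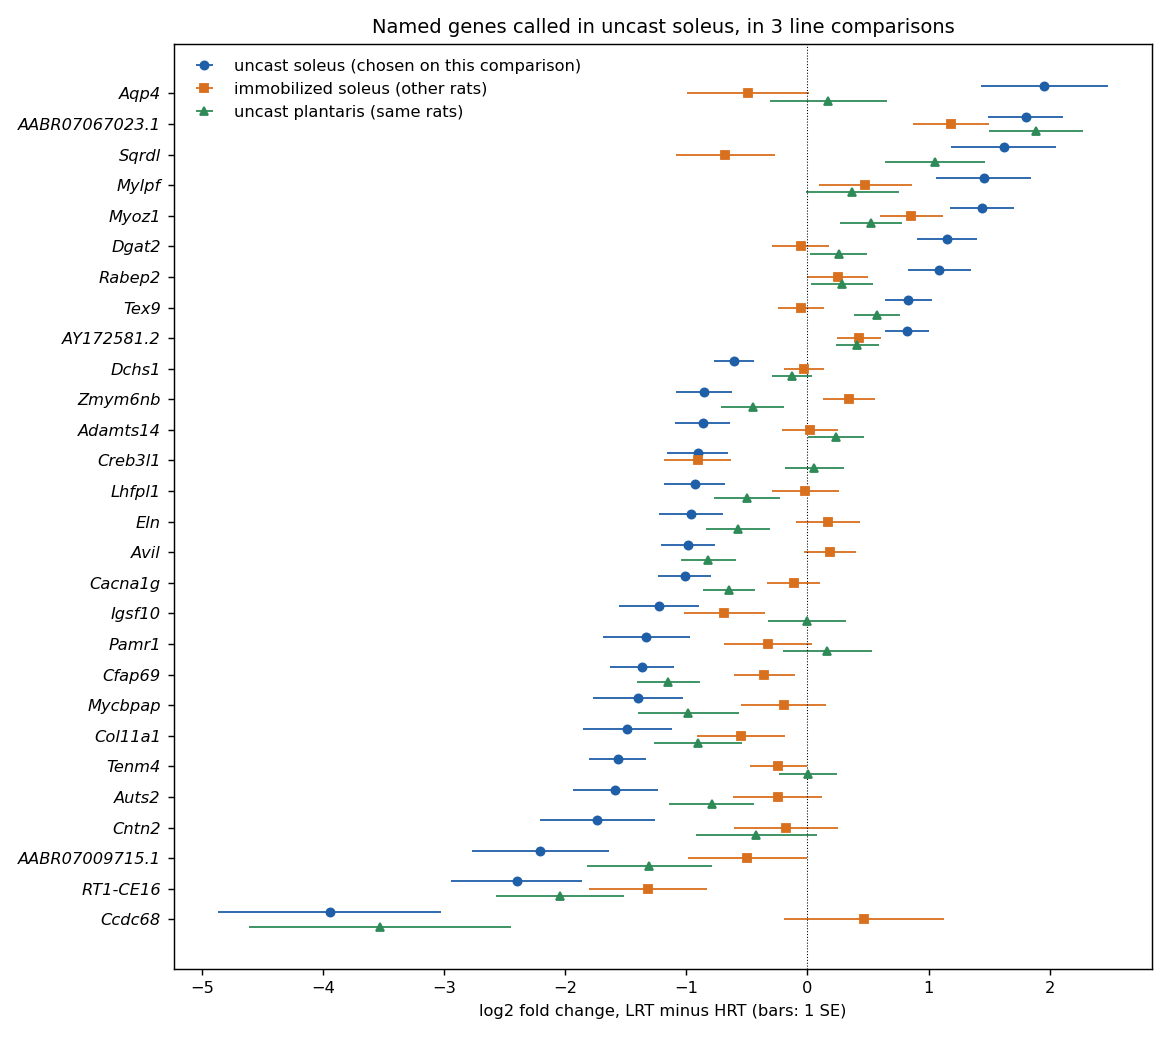
Log2 differences of LRT minus HRT with 1 SE for the 28 named genes called in uncast soleus, which chose them, beside the values of the same genes in immobilized soleus of other rats and in uncast plantaris of the same rats. Myoz1, AABR07067023.1 and RT1-CE16 keep their side of 0 in all 3 comparisons, whereas Dgat2, Tenm4 and Eln lie near 0 in immobilized soleus.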

How the data were processed

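RNA from soleus and plantaris was sequenced, and the authors quantified reads with Salmon 0.9.1 against the rat Rnor 6.0 transcripts, according to the submitters' processing notes and the study's methods, and deposited 1 matrix of estimated counts per gene, scaled by transcript length. The study's methods name a stranded total RNA kit, whereas the sample labels name TruSeq RNA Sample Prep. The strand setting of the quantification is not given in the sources used here. Reads of overlapping and antisense genes may therefore not have been told apart. The estimated counts of 31998 genes were rounded. Genes were kept by edgeR's expression filter (16960), libraries were scaled by trimmed mean of M-values (TMM), and all 48 libraries were fitted in 8 groups with RNA integrity as a covariate by edgeR 4.0.16 (quasi-likelihood) in R 4.3.3. The spread is thus shared with the other groups. A gene is called where its Benjamini-Hochberg adjusted p, computed across every gene tested, is under 0.05, and DEG means an absolute log2 difference over 1 as well. Levels are TMM-scaled CPM, not divided by gene length, and log2 differences are fitted at equal RNA integrity. A prior count of 2 was used for log2 CPM, as in the principal components, and the fits kept edgeR's default. Standard errors were computed back from the fitted difference and its F statistic, so they carry the shared spread. The study used limma-voom, which was run here as an alternative (limma 3.58.1) with DESeq2 1.42.0.

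Symbols came from the study's gene tables (1148 identifiers), whose values were not used. Named genes were the up to 10 largest in each direction among called symbols with no overlap and a mean of at least 1 CPM (9 met this). Under the same conditions 2 identifiers without a symbol were taken in each direction. Each list gave up to 4 called genes, or else the 2 with the smallest p. A set of muscle genes of interest and the 3 symbols with the smallest interaction p were taken too. All other called symbols were added. 1 gene that the rule names is not reported here. The members, lists and rule were chosen with earlier results of these data known. In the 30 pairs of libraries within a group the chi-square per gene was 18 to 213. The libraries came from different rats, so a comparison with counting noise alone decides nothing and no conclusion is drawn from it. The test was tried on simulated counts. Alternatives were other scalings, filters, tools and sample sets, a replicate block and leaving out each library. No reference genome was used beyond the RefSeq annotation and promoter windows of GRCr8, and gene positions are not given outside those windows.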

Additional observations from a re-analysis of the deposited data

Results flagged for a closer look

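In 26 of 138 group ranges of a named gene or a library measure, the highest or the lowest of the 6 libraries lay far from the other 5 relative to the whole range (Dixon's ratio above its 95% critical value), where chance flags about 1 in 20. HRT replicate 1 was that library for Auts2 (4.14 CPM), Mt3 (10.3), Cacna1g (10.8), Eln (63.1), Creb3l1 (4.52), Adamts14 (8.19), Dchs1 (54.2), Ulk1 (59.3), Hspb6 (1198) and Hdac4 (30.8), each of them its group's highest. It was the lowest for ENSRNOG00000051648 (1.15 CPM), and it stood apart on the first and second principal components, at 84.5 and 14.0. In HRT the other single highest rats were replicate 2 for Col11a1 (24.9 CPM) and Tex9 (7.66), replicate 3 for Alas2 (10.3), replicate 5 for Casq1 (588) and replicate 6 for LOC100362027 (56.2) and Eno3 (1342).

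In LRT, replicate 3 was far from the other rats for ENSRNOG00000038999 (highest, 8.89 CPM), Fbxo32 (lowest, 64.0), Car3 (lowest, 11820) and Hspa5 (highest, 753). LRT replicate 4 was the highest for Bhlhe41 (8.29 CPM), replicate 5 for LOC100362027 (34.2), and replicate 6 was the lowest for Mylpf (207).

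The line difference itself differed between the muscles for ENSRNOG00000057214 (soleus minus plantaris -1.76 on the log2 scale) and ENSRNOG00000059075 (-3.10) by an interaction test in edgeR (adjusted p = 0.00096 and 0.00082).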

How the results depend on the processing

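No named gene that was called changed sign in any alternative fit. The count of called genes, 246 with 37.8% higher in LRT, was 558 with library totals (54 higher, 504 lower, 9.68% higher), a scaling under which the median of all genes moved to -0.125, 434 by DESeq2's Wald test (180 and 254), 99 with the 24 soleus libraries alone (37 and 62) and 78 with the 12 uncast soleus libraries alone (38 and 40). Without the RNA integrity covariate 231 genes were lower. DEGs numbered 91, against 154 with library totals, 40 with at least 10 counts in every library, 50 with 24 libraries, 37 with 12 libraries, and 12 at an adjusted p under 0.001. Leaving out 1 library gave 139 to 342 called genes, 45 to 121 higher and 88 to 232 lower, with the largest losses without LRT replicate 1 (139), HRT replicate 1 (150) and LRT replicate 5 (156).

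The labels do not say that replicate numbers pair the rats of the lines, and the main fit used no pairing. The deviations of same-numbered LRT and HRT libraries correlated at 0.016 to 0.13, over 0.1 in 1 of 6 pairs, and 3 of 6 libraries correlated best with their own number. These values do not settle whether the numbers share an order of handling. With a replicate block on the 12 libraries 21 genes were called (8 higher, 13 lower, 11 DEGs), 16 of them among the 246, and no member of the extracellular matrix, fast fibre, lipid or adipocyte lists (0 each).

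Called members of the lists moved as follows. Extracellular matrix (2) had 5 with library totals, 4 by DESeq2 and without the covariate, 1 with any count and 12 libraries, and 0 to 4 on leaving out 1 library. Fast fibre (2) had 1 with any count, 24 and 12 libraries, and 1 to 2 on leaving out 1 library. Glycolysis (0) had 3 by DESeq2 and 12 libraries, 1 by limma-voom, and 0 to 3 on leaving out 1 library. Mitochondrial genes (1) had 0 with library totals, any count and 24 libraries, and 0 to 1 on leaving out 1 library. Interferon (1) had 0 by limma-voom and with at least 10 counts. Lipid and adipocyte genes (1 each) had 0 with 24 libraries. Fibroblast genes (0) had 1 with library totals, DESeq2 and no covariate, and 0 to 1 on leaving out 1 library. Under library totals the medians of the immediate early (-0.04), proteolysis (-0.08) and smooth muscle lists (-0.12) turned negative, and that of the adipocyte list did so under limma-voom (-0.04). The soleus-plantaris test (2) gave 16 genes by DESeq2, 1 with at least 10 counts and 9 by limma-voom with the rat as a block. The cause of these shifts was not tested. Genes under about 1 CPM rest on few counts, and their fitted differences depend on the default prior count of the fit.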
